A study of Mus musculus with 8 samples.

Results

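The 56 genes described here are the interleukin and tumour necrosis factor (TNF) superfamily genes of a mouse muscle RNA sequencing table. They are the protein-coding rows whose names start with Il and a number, with Tnfsf or with Tnfrsf, or are Tnf, and that reached 0.5 FPKM in at least 2 of 8 libraries. FPKM counts sequenced fragments for each kilobase of a transcript, relative to the fragments of the library. Of the 43628 rows of the table, 117 carried such a name, and 61 of these stayed below the minimum. By name and textbook role the 56 were 11 genes of the IL-1 family, 10 of the common gamma chain and IL-4 family, 5 of the IL-6 and IL-12 family, 3 of the IL-10 family, 5 of the IL-17 family, 4 other genes named for interleukins, 4 TNF superfamily ligands and 14 TNF receptors.

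Interleukins and TNF family ligands are secreted or membrane-bound messengers of immune and stromal cells, and many of their receptors sit on macrophages, lymphocytes, fibroblasts and muscle fibres alike. Most interleukin receptors signal through JAK kinases and STAT factors, the IL-1 and IL-17 receptors and many TNF receptors through adaptor proteins that lead to NF-kB, and decoy receptors and antagonists hold ligands back. In dystrophic muscle, repeated damage and repair of fibres brings in macrophages and other leukocytes that both make and sense these messengers.

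The libraries came from quadriceps, the large thigh muscle, of 40 male mice aged 8 weeks. WT were 14 mice of strain C57BL/10ScSnJ, and mdx were 15 mice of strain C57BL/10ScSn-Dmdmdx/J, which carry a mutation of Dmd, the dystrophin gene, and model Duchenne muscular dystrophy. The dy2J group were 11 mice homozygous for the Lama2 dy-2J allele on C57BL/6J, a model of laminin alpha-2 deficient congenital dystrophy. RNA of 4 to 6 mice (5 to 6 in dy2J) was pooled for each library, so that there were 3 libraries of WT, 3 of mdx and 2 of dy2J. Each n is a number of pools, and p-values rest on how pools, not single mice, differ. The strain of dy2J differed from those of WT and mdx, so strain and genotype cannot be told apart when dy2J is compared with either.

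Dmd averaged 29.8 ± 2.01 FPKM in WT (SD, n = 3) and 4.58 ± 0.808 in mdx (n = 3), and Lama2 averaged 9.40 ± 0.0505 in WT and 5.19 ± 0.170 in dy2J (n = 2). Across genes, log2(FPKM + 1) of library pairs had a Pearson correlation of 0.977 to 0.988 within genotypes and of 0.912 to 0.970 between them. Summed FPKM ran from 556218 to 785513 per library, which is not a depth, and the number of reads behind a value is unknown. Macrophage markers (10 genes, among them Cd68, Adgre1 and Lyz2) summed to 147 to 179 FPKM in WT, 653 to 1320 in the mdx pools, and 456 and 379 in the dy2J pools. In bulk tissue, fewer cells of a type and less RNA per cell cannot be told apart, nor can more of either.

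Most of the 56 genes were low in level. Il6st, the gp130 subunit shared by the receptors of IL-6 and its relatives, had the highest mean in all 3 genotypes, at 84.8 ± 9.96 FPKM in WT, against 87.9 ± 14.5 in mdx and 82.8 ± 5.28 in dy2J. In WT it was followed by Tnfrsf1a (25.2 ± 3.60), Il11ra1 (19.6 ± 1.54), Tnfrsf12a (19.2 ± 4.84) and Il15ra (17.5 ± 4.75), and the last 3 of these overlapped in their SDs. The median of the 56 means was 1.90 FPKM in WT, against 3.46 in mdx and 2.21 in dy2J. Means under 1 FPKM were found for 12 genes in WT, 5 in mdx and 8 in dy2J, and means of 10 or more for 6, 8 and 6.

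Members at the low end passed the minimum in only some genotypes. All 8 libraries held at least 0.5 FPKM for 44 genes, and all WT libraries for 45. Il1f9, Il21r, Il2rb, Il7r and Tnfrsf13b reached it in no WT library and Il17f, Il1b, Il1rn and Il4 in 1. Il1f9, Il2rb and Il7r reached it in mdx alone, so these 3 entered the set only through the genotype in which they were high. Just inside the minimum, by the second-highest library, were Il21r (0.555 FPKM), Il4 (0.568) and Il17f (0.636), and just outside were Tnfrsf11b (0.497), Tnfsf9 (0.490) and Tnf itself (0.483).

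**Figure D1:**
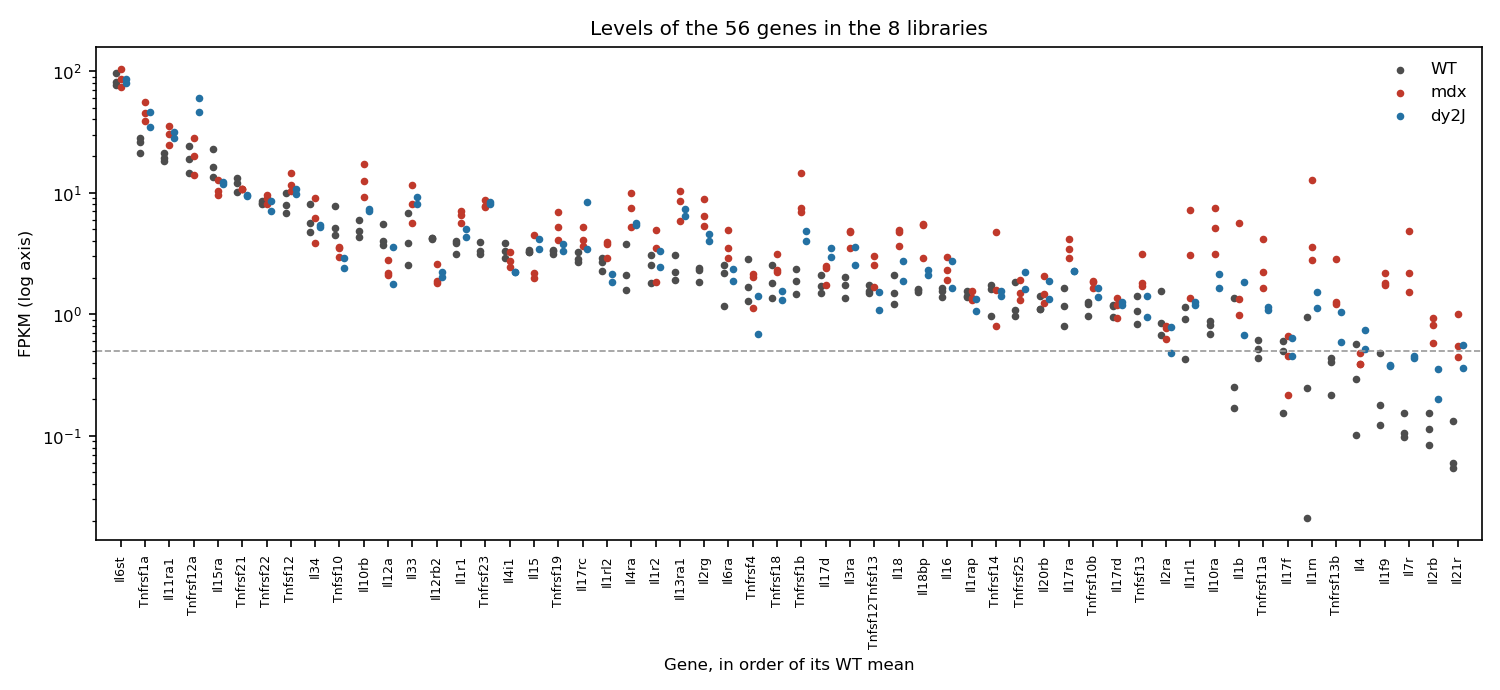
FPKM of each of the 56 genes (horizontal axis, in order of the WT mean) in the 8 libraries on a log axis, with WT in grey, mdx in red and dy2J in blue and the minimum of 0.5 FPKM dashed. Il6st leads near 84.8 FPKM in every genotype, and at the right end Il1f9, Il7r and Il2rb lie under the line in WT and dy2J and above it in mdx.

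Several well-known cytokines of muscle injury were below the minimum and were not in the limma fit. Tnf, the founding ligand of the family, read 0.163, 0.106 and 0.0772 FPKM in the WT libraries, 0.292, 0.988 and 0.483 in mdx and 0.115 and 0.225 in dy2J, so mdx lay above all others, and the authors' deposited table gave it q = 0.0047 in mdx. Il6, which muscle fibres and leukocytes release, read 0.280, 0.299 and 0.260 in WT, 1.45, 0.147 and 0.431 in mdx and 0.336 and 0.443 in dy2J, with 1 mdx library high and 1 below WT. The anti-inflammatory cytokine Il10 was at most 0.135 in WT, at most 0.425 in mdx and at most 0.128 in dy2J. Il7, the ligand of Il7r, stayed between 0.179 and 0.546 in the 8 libraries with overlapping groups, and Tnfsf13b (BAFF, a B cell survival factor) between 0.160 and 0.494. Tnfsf11 (RANKL) was at most 0.255, and its decoy receptor Tnfrsf11b (osteoprotegerin) averaged 0.123 ± 0.0557 in WT, 0.385 ± 0.201 in mdx and 0.443 ± 0.0763 in dy2J, with q = 0.00367 and 0.00663 in the authors' deposited table. Of the 61 rows below the minimum, 14 were listed at 0 in all 8 libraries.

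The set was called more often than all genes tested in mdx, mostly as higher. With limma on log2(FPKM + 1), fitted to 14355 genes, 31 of the 56 (55.4%) passed an adjusted p of 0.05, where 34.5% of all genes tested did. Higher in mdx were 27 (48.2%, against 22.8% of all genes) and lower were 4 (7.14%, against 11.7%). The median log2 fold change was 0.46 over the 56 genes and 0.08 over all genes. The 27 genes higher in mdx include Il1f9, Il2rb and Il7r, which entered the set only through mdx. They also include Il21r and Tnfrsf13b, which reached the minimum in no WT library. Of the 45 genes at the minimum in all WT libraries, 19 (42.2%) were higher and 4 (8.89%) lower. The shares among all genes at the minimum in all WT libraries were not computed, so these counts are a description only. Receptors were called about as often as the whole set: of 38 receptors 21 were higher and 2 lower, and of 15 ligands 4 were higher (Il18, Il1f9, Tnfsf12 and Tnfsf13) and 2 lower (Il12a and Tnfsf10). Quantile normalization moved the median of all genes from 0.08 to -0.07 and the share of all calls that were higher from 66.1% to 42.7%, and it left 21 members higher and 5 lower. Rescaling by the median ratio put that share at 57.6%, with 26 members higher and 4 lower.

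In dy2J against WT 12 genes (21.4%) passed, close to the 18.5% of all genes tested. Il2rg, Il4ra, Il13ra1, Il11ra1, Il17d, Il17ra, Tnfrsf1a, Tnfrsf1b, Tnfrsf12a and Tnfrsf23 were higher (17.9%, against 10.6% of all genes), and Il12rb2 and Tnfsf10 were lower (3.57%, against 7.86%). The median log2 fold change was 0.29 over the 56 genes and 0.01 over all genes. The split of 10 higher and 2 lower became 5 and 4 with quantile normalization and 7 and 3 with rescaling by the median ratio. Without dy2J 1 only 1 member passed, without dy2J 2, WT 1 or WT 3 5 did in each case, and a fit of WT and dy2J alone gave 19. Only Tnfrsf23 passed under all 18 alternatives. Of the 31 genes called in mdx, 22 passed under every alternative that fitted them, which was 17 for Il21r and Il2rb. The 22 include Il1f9, Il2rb and Il7r, which entered the set only through mdx. They also include Il21r and Tnfrsf13b, which reached the minimum in no WT library. The share of all genes that passed in this way was not computed, so these counts are a description only.

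Directly between the models, 5 genes (8.93%) passed, where 6.05% of all genes did. Tnfrsf12a was higher in dy2J (1.79%, against 2.59% of all genes), and Il1f9, Il1rl2, Il7r and Il10ra were lower (7.14%, against 3.46%), of which Il1f9 and Il7r had entered the set only through mdx. Of the 5, none passed under all alternatives, and the count ran from 0 without dy2J 1 to 12 without mdx 1. It was 2 without WT 1, WT 2 or mdx 3, 1 without WT 3 or dy2J 2 and 3 without mdx 2.

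By pattern of calls, 22 genes passed in no comparison, 8 were higher in both models against WT, and 2 (Il12rb2 and Tnfsf10) were lower in both. Both models were set against the same WT libraries, so calls in both are not independent. The share of all genes with each pattern was not computed, so these counts are a description only. Another 16 were called higher in mdx alone, and Il1f9, Il7r and Il10ra were also lower in dy2J than in mdx. Among these, Il1f9, Il2rb and Il7r had entered the set only through mdx, and Il21r and Tnfrsf13b had reached the minimum in no WT library. Il15ra and Il12a were called lower in mdx alone, Il17d and Tnfrsf12a were called against WT only in dy2J, and no gene was called in opposite directions.

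**Figure D2:**
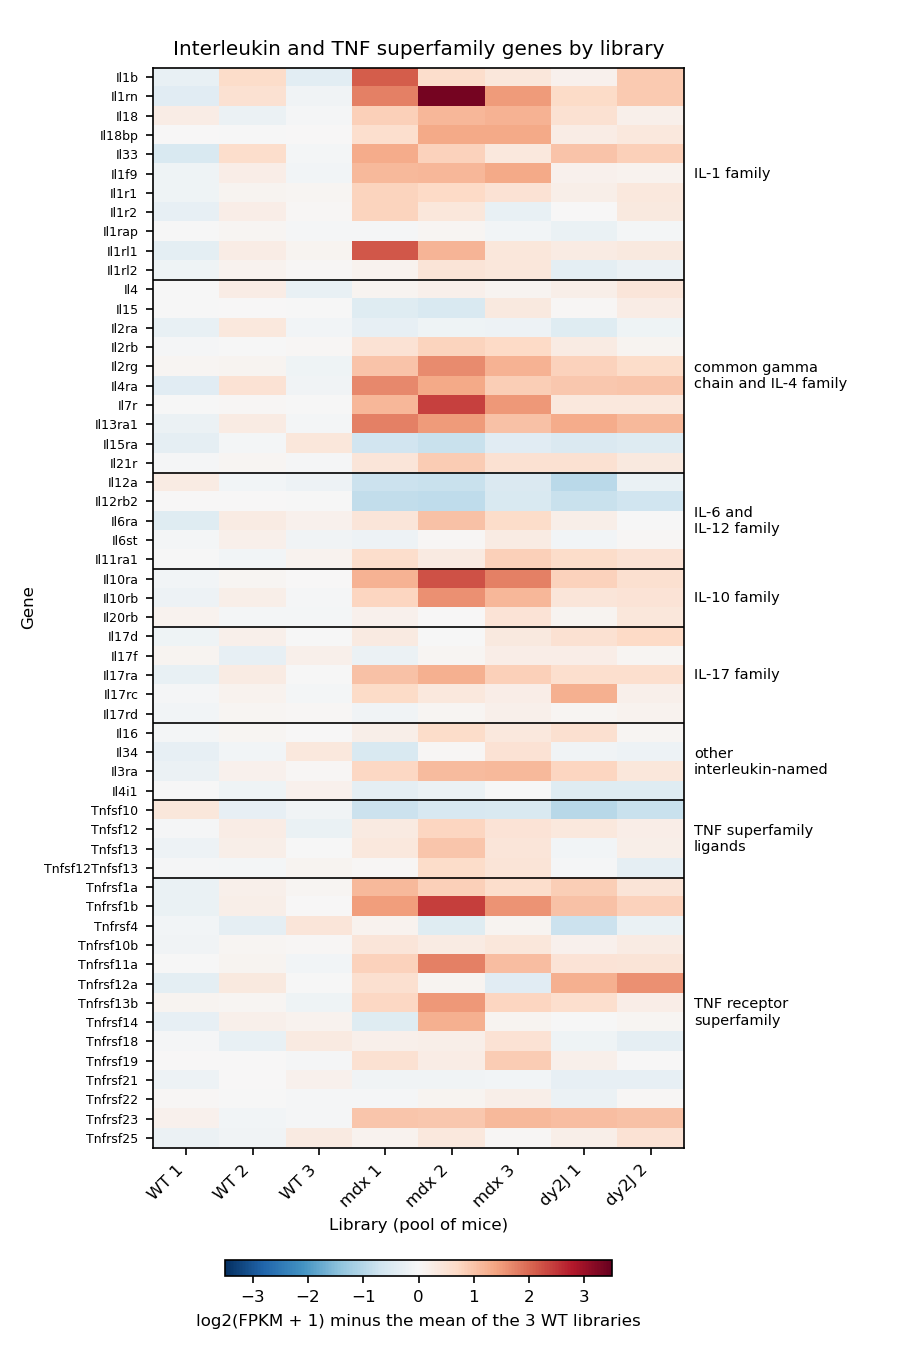
Difference of log2(FPKM + 1) from the mean of the 3 WT libraries for the 56 genes (rows, by family) in each library (columns), with red above and blue below that mean. The mdx columns are red for most receptors, Il1rn in mdx 2 is the darkest cell, and averaged over the dy2J columns the reddest genes are Tnfrsf12a (1.43), Il13ra1 (1.23), Tnfrsf23 (1.05) and Il4ra (0.96).

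The IL-1 family was higher in mdx in an antagonist, a binding protein, 2 receptors and 2 ligands. Of its 11 genes these 6 (54.5%) were called higher in mdx, where 22.8% of all genes were, and none passed in dy2J, where 18.5% of all genes did. Il1f9, however, entered the set only through its mdx libraries. The largest rise of all 56 on the log2(FPKM + 1) scale was that of Il1rn (ENSMUSG00000026981, chromosome 2, 24336853 to 24351494, GRCm38), the IL-1 receptor antagonist, which occupies the receptor without signalling. By the ratio of mean FPKM, mdx over WT, Il7r at 23.9 stood above Il1rn at 15.9. The libraries of Il1rn read 0.0211, 0.939 and 0.245 FPKM in WT, 3.58, 12.8 and 2.78 in mdx and 1.13 and 1.53 in dy2J. No mdx library overlapped WT or dy2J, and mdx 2 stood far above the other mdx libraries. Il1rn rose in mdx by 2.20 on the log2 scale, with an SE of 0.45 (limma adjusted p = 0.00674, by Benjamini-Hochberg) and was not called in dy2J (0.78 ± 0.50, limma adjusted p = 0.310).

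On the same chromosome, Il1f9 (ENSMUSG00000044103, 24186476 to 24193568) encodes IL-36 gamma, an IL-1 type cytokine best known from epithelia. It read 0.123, 0.478 and 0.179 FPKM in WT, 1.74, 1.82 and 2.16 in mdx and 0.382 and 0.375 in dy2J. The mdx libraries lay close together and apart from all others, while dy2J lay within WT. Since only its mdx libraries brought Il1f9 into the set, its fitted log2 differences of 1.21 ± 0.13 from WT and of -1.07 ± 0.14 for dy2J against mdx are a description and carry no test here. Its receptor Il1rl2 read 2.25, 2.88 and 2.67 in WT, 2.88, 3.89 and 3.75 in mdx and 1.83 and 2.14 in dy2J, and was lower in dy2J than in mdx by a log2 difference of -0.59 ± 0.14 (limma adjusted p = 0.0455). The adjusted p of Il1rl2 ran from 0.0212 to 0.229 over the alternatives and was above 0.05 whenever a library other than mdx 1 was left out.

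The 250 bases before the RefSeq start of Il1rn (the most upstream of its 3 starts) and of Il1f9 are shown. Il1rn had the largest rise on the log2 scale, and Il1f9 lies near it on the chromosome, the 2 genes spanning 165 kb. They are read 5′ to 3′ from the GRCm38.p6 promoter table of RefSeq, at chr2:24336610-24336859 and chr2:24186226-24186475, both on the plus strand. Capitals mark an AP-1 match (TGANTCA) that starts 141 bases before the Il1rn start and a match to the STAT motif GAS (TTCNNNGAA) that starts 128 bases before the Il1f9 start.
Il1rn: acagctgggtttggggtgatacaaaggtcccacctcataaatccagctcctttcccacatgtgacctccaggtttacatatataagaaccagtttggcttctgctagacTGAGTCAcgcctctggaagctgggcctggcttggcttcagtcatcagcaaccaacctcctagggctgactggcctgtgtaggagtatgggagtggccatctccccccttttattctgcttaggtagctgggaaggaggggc
Il1f9: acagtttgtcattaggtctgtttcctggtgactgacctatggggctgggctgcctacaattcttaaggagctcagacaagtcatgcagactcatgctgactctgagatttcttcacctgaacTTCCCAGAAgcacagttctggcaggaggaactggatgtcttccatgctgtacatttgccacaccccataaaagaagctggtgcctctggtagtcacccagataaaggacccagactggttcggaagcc

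Il18, a cytokine matured by inflammasomes, and Il18bp, the soluble protein that captures it, were higher in mdx together. Il18 read 2.08, 1.22 and 1.48 FPKM in WT, 3.61, 4.75 and 4.96 in mdx and 2.74 and 1.88 in dy2J. Il18bp read 1.58, 1.53 and 1.61 in WT, 2.88, 5.41 and 5.50 in mdx and 2.10 and 2.31 in dy2J. All mdx libraries lay above all WT and dy2J libraries for both genes. The rises in mdx were 1.07 ± 0.17 for Il18 (limma adjusted p = 0.00206) and 1.08 ± 0.19 for Il18bp (limma adjusted p = 0.00329).

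Among the receptors, Il1r1, which signals for IL-1, read 3.15, 3.99 and 3.82 FPKM in WT, 6.99, 6.50 and 5.57 in mdx and 4.30 and 4.98 in dy2J. It rose in mdx by 0.66 ± 0.12 (limma adjusted p = 0.00381). Il1rl1 (ST2), the receptor of IL-33 on regulatory T cells and other leukocytes, read 0.424, 1.14 and 0.915 in WT, 7.16, 3.07 and 1.37 in mdx and 1.19 and 1.27 in dy2J. The mdx libraries of Il1rl1 spread widely, with mdx 3 near dy2J. Its rise of 1.25 ± 0.38 in mdx passed (limma adjusted p = 0.0341), but the adjusted p ran from 0.00638 to 0.10 over the alternatives and exceeded 0.05 whenever a WT or dy2J library or mdx 2 was left out, and with quantile normalization. Il1rap, the accessory chain shared by these receptors, lay between 1.07 and 1.56 FPKM in the 8 libraries and was not called in any comparison.

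Il33, the alarmin that binds ST2 and is kept in stromal nuclei, read 2.52, 6.76 and 3.83 FPKM in WT, 11.6, 7.98 and 5.60 in mdx and 9.20 and 8.06 in dy2J. WT 2 overlapped mdx, and the differences of 0.83 ± 0.30 in mdx and 0.92 ± 0.34 in dy2J were not called (limma adjusted p = 0.0627 and 0.0948). Without WT 2 the difference passed in both (limma adjusted p = 0.0196 and 0.0372), and over the alternatives the adjusted p ran from 0.0196 to 0.181 in mdx and from 0.0372 to 0.344 in dy2J. The authors' deposited table gave Il33 a q of 0.000749 in each comparison.

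Il1b, the classical inflammatory IL-1, read 0.254, 1.37 and 0.170 FPKM in WT, 5.57, 1.33 and 0.978 in mdx and 0.677 and 1.84 in dy2J, with overlapping groups. The difference in mdx, 1.04 ± 0.46, was not called (limma adjusted p = 0.116), while the authors' deposited table gave q = 0.00201. The decoy receptor Il1r2, which binds IL-1 without signalling, read 1.79, 3.04 and 2.53 in WT, 4.89, 3.53 and 1.84 in mdx and 2.46 and 3.30 in dy2J and was not called. Both genes were highest in mdx 1 and, within WT and dy2J, in WT 2 and dy2J 2. The 7 neutrophil markers summed to 2.98, 43.2 and 5.77 FPKM in WT, 90.8, 41.5 and 9.42 in mdx and 4.57 and 60.7 in dy2J, and their part in these values was not tested. Of these markers, S100a8 had the highest level and Ly6g and Ltf were listed at 0 in some libraries.

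In the common gamma chain and IL-4 family most receptors were higher in mdx. Of 10 genes 6 (60.0%, against 22.8% of all genes) were called higher in mdx, and 1, Il15ra, lower, and 3 (30.0%, against 10.6%) were higher in dy2J. The 6 include Il7r and Il2rb, which entered the set only through their mdx libraries. They also include Il21r, which entered through mdx and dy2J libraries and reached the minimum in no WT library. Il7r (ENSMUSG00000003882, chromosome 15, 9506161 to 9529876), the IL-7 receptor chain of lymphocytes and some innate cells, read 0.0982, 0.153 and 0.105 FPKM in WT, 1.51, 4.83 and 2.20 in mdx and 0.454 and 0.440 in dy2J. The 3 genotypes did not overlap, and mdx 2 was the highest library. The fitted log2 differences of Il7r, 1.69 ± 0.26 from WT to mdx and -1.32 ± 0.29 for dy2J against mdx, are likewise a description with no test.

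Il2rg, the common gamma chain itself, read 2.32, 2.41 and 1.84 FPKM in WT, 5.35, 8.92 and 6.36 in mdx and 4.59 and 4.00 in dy2J, so that dy2J lay between WT and mdx without overlap. It rose in mdx by 1.28 ± 0.17 (limma adjusted p = 0.00103) and by 0.73 ± 0.19 in dy2J (limma adjusted p = 0.0289). Il2rg shares 27.5% of its 50-base words with Gm20489, so its level is uncertain. Gm20489 overlaps Il2rg on the same strand and was listed at no more than 0.103 FPKM. Il21r, which pairs with Il2rg on lymphocytes, reached the minimum in no WT library. Its fitted difference of 0.61 ± 0.14 in mdx, from a WT mean of 0.0813 ± 0.0427 FPKM, is given with no test. Il2rb, another partner, had a WT mean of 0.117 ± 0.0350 FPKM and a fitted difference of 0.66 ± 0.11 in mdx, given with no test. The T and NK cell markers summed to 1.23 to 1.89 FPKM in WT, 4.00 to 5.08 in the mdx pools and 5.17 and 2.70 in the dy2J pools. Cd3g alone read 2.39 in dy2J 1 and 0.523 in dy2J 2. Cd3e was at most 0.316, and Cd8a and Cd8b1 were listed at 0 in some libraries. Of 3 tested markers 2 (Cd4 and Nkg7) were higher in mdx. The part of the T and NK cell markers in the mdx levels of Il7r, Il2rb, Il2rg and Il21r was not tested.

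Il4ra and Il13ra1 form the receptor of IL-4 and IL-13 that is present on macrophages, fibroblasts and many other cells. Il4ra read 1.58, 3.81 and 2.09 FPKM in WT, 9.86, 7.41 and 5.17 in mdx and 5.46 and 5.66 in dy2J. Il13ra1 (ENSMUSG00000017057, chromosome X, 36112110 to 36171259) read 1.91, 3.08 and 2.21 in WT, 10.4, 8.53 and 5.89 in mdx and 7.34 and 6.42 in dy2J. For both genes all libraries of either model lay above all WT libraries, and the models overlapped. Il13ra1 rose in mdx by 1.43 ± 0.20 (limma adjusted p = 0.00126) and by 1.23 ± 0.22 in dy2J (limma adjusted p = 0.00798). Il4ra rose in mdx by 1.29 ± 0.26 (limma adjusted p = 0.00589) and by 0.96 ± 0.29 in dy2J (limma adjusted p = 0.0494). Of the ligands of these receptors, Il4 lay between 0.102 and 0.742 FPKM and Il13 was listed at 0 in all libraries. A listed 0 can be a failed estimate in this table: Acta1, the main actin of skeletal muscle, was listed at 0 in WT 1 and at 24100 and 24000 FPKM in WT 2 and WT 3.

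The calls of this family in dy2J did not hold in every alternative. Without dy2J 1 the adjusted p was 0.0809 for Il13ra1 (0.00479 to 0.0809 over the limma alternatives). For Il2rg it exceeded 0.05 whenever a WT or dy2J library was left out (0.00843 to 0.190), and for Il4ra without WT 1, WT 3, mdx 2, dy2J 1 or dy2J 2 (0.0236 to 0.206). The call of Il4ra was also lost with quantile normalization and with median-ratio rescaling.

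Il15 and its receptor chain Il15ra are both made by muscle fibres. Il15 read 3.25, 3.35 and 3.27 FPKM in WT, 2.18, 1.98 and 4.45 in mdx and 3.41 and 4.13 in dy2J, with the mdx libraries on both sides of WT. It was not called (log2 difference of -0.20 ± 0.21 in mdx, limma adjusted p = 0.485), and without mdx 3 it passed as lower (-0.48, limma adjusted p = 0.0143, the lowest over the alternatives). Il15ra read 13.5, 16.3 and 22.8 in WT, 10.3, 9.55 and 12.8 in mdx and 11.7 and 12.3 in dy2J, all below WT. It fell by 0.62 ± 0.18 in mdx (limma adjusted p = 0.0284, range 0.00926 to 0.0864 over the alternatives), a call that was lost without WT 2, WT 3, mdx 1 or mdx 2. The alpha chain Il2ra lay between 0.476 and 1.56 FPKM and was not called.

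The IL-6 and IL-12 family moved in both directions. Il6st, which had the highest level, read 81.2, 96.0 and 77.1 FPKM in WT, 74.0, 86.6 and 103 in mdx and 79.0 and 86.5 in dy2J, with log2 differences of 0.04 ± 0.14 and -0.03 ± 0.16 that were not called (limma adjusted p = 0.832 and 0.917). Il6ra, which gives gp130 its specificity for IL-6, read 1.17, 2.52 and 2.19 in WT, 2.90, 4.91 and 3.50 in mdx and 2.34 and 1.87 in dy2J. It rose in mdx by 0.70 ± 0.21 (limma adjusted p = 0.0329, range 0.0271 to 0.101 over the alternatives) but did not pass without WT 1, WT 3, mdx 2 or mdx 3, or with quantile normalization. Il11ra1, the IL-11 receptor chain found on fibroblasts, averaged 19.6 ± 1.54 in WT, 30.2 ± 5.36 in mdx and 29.8 ± 2.07 in dy2J. Its rises of 0.59 ± 0.13 and 0.58 ± 0.15 passed (limma adjusted p = 0.0108 and 0.0313), and the second was lost whenever a WT or dy2J library was left out (0.0101 to 0.205 over the alternatives). Il11ra1 overlaps Galt on the same strand and shares 46.3% of its 50-base words with near-identical copies such as Il11ra2, so its level is uncertain.

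In the IL-12 branch, which drives interferon-type responses of T and NK cells, Il12rb2 was lower in both models and Il12a in mdx. Il12rb2 (ENSMUSG00000018341, chromosome 6, 67291318 to 67376188), a signalling chain of the IL-12 receptor, read 4.23, 4.25 and 4.15 FPKM in WT, 1.89, 1.80 and 2.60 in mdx and 2.02 and 2.23 in dy2J. The WT libraries lay close together, and both models lay below all of them. Il12rb2 fell by 0.76 ± 0.12 in mdx (limma adjusted p = 0.00191) and by 0.74 ± 0.13 in dy2J (limma adjusted p = 0.00738, lost without dy2J 1 at 0.0774, which was the highest over the alternatives). It shares 38.0% of its 50-base words with other genes, chiefly Serbp1, and is therefore uncertain too. Il12a, the p35 subunit, read 5.51, 4.03 and 3.74 in WT, 2.20, 2.11 and 2.81 in mdx and 1.78 and 3.55 in dy2J. It fell by 0.68 ± 0.20 in mdx (limma adjusted p = 0.0295, range 0.0123 to 0.0928 over the alternatives), and the call was lost without WT 1, WT 2, mdx 1 or mdx 2.

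Both chains of the IL-10 receptor rose in mdx. Il10ra (ENSMUSG00000032089, chromosome 9, 45253837 to 45269149), the ligand-binding chain on leukocytes, read 0.692, 0.877 and 0.812 FPKM in WT, 3.14, 7.44 and 5.07 in mdx and 2.14 and 1.65 in dy2J. The 3 genotypes did not overlap, in the order WT, dy2J, mdx. Il10ra rose in mdx by 1.73 ± 0.23 (limma adjusted p = 0.00109), was not called in dy2J (0.69 ± 0.25, limma adjusted p = 0.0945) and was lower in dy2J than in mdx by a log2 difference of -1.05 ± 0.25 (limma adjusted p = 0.0485). That last call was lost whenever a library other than mdx 1 was left out, and with median-ratio rescaling (limma adjusted p with a range of 0.00855 to 0.259 over the alternatives). Il10rb, the widely expressed partner chain, averaged 5.03 ± 0.790 in WT, 12.9 ± 4.04 in mdx and 7.19 ± 0.248 in dy2J and rose in mdx by 1.17 ± 0.20 (limma adjusted p = 0.00292). The summed macrophage markers were 653, 1320 and 833 FPKM in mdx 1, 2 and 3 and 456 and 379 in dy2J 1 and 2, and their part in the rise of Il10ra was not tested.

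In the IL-17 family the shared receptor chain Il17ra rose in both models and the ligand Il17d in dy2J. Il17ra read 0.798, 1.63 and 1.16 FPKM in WT, 3.44, 4.12 and 2.90 in mdx and 2.27 in each dy2J library. It rose in mdx by 1.04 ± 0.16 (limma adjusted p = 0.00187) and by 0.59 ± 0.18 in dy2J (limma adjusted p = 0.0490), the second lost without WT 1, WT 3, mdx 1, dy2J 1 or dy2J 2 and with either other scaling of the libraries (0.0340 to 0.216 over the alternatives). Il17d, a poorly understood ligand of the family, averaged 1.76 ± 0.299 in WT, 2.21 ± 0.413 in mdx and 3.22 ± 0.371 in dy2J. Its rise of 0.62 ± 0.15 in dy2J passed (limma adjusted p = 0.0248) but was lost without WT 1, WT 3, dy2J 1 or dy2J 2 and with quantile normalization (0.0140 to 0.141 over the alternatives). Il17f lay between 0.153 and 0.658 FPKM and Il17rd between 0.936 and 1.35, and neither was called. Il17rc, which pairs with Il17ra, read 8.32 in dy2J 1 and 3.43 in dy2J 2 and was not called (0.71, limma adjusted p = 0.106). Without dy2J 2 it passed in dy2J (1.25, limma adjusted p = 0.0117), and the adjusted p ran from 0.0117 to 0.643 over the alternatives.

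Of the 4 other genes named for interleukins, Il3ra alone was called. It encodes the specific chain of the IL-3 receptor on myeloid cells, averaged 1.71 ± 0.332 FPKM in WT, against 4.38 ± 0.765 in mdx and 3.06 ± 0.713 in dy2J, and rose in mdx by 0.98 ± 0.16 (limma adjusted p = 0.00223). In dy2J its difference of 0.58 ± 0.17 lay at the threshold (limma adjusted p = 0.0501, range 0.0370 to 0.326 over the alternatives, passing without mdx 1 at 0.0370). Il34, a second ligand of the CSF1 receptor, read 4.76, 5.65 and 8.13 in WT, 3.87, 6.20 and 9.08 in mdx and 5.43 and 5.24 in dy2J, spread as widely within genotypes as between them. Il16, a T cell attractant, read 1.39, 1.64 and 1.56 in WT, 1.90, 2.98 and 2.29 in mdx and 2.72 and 1.63 in dy2J. It was short of the threshold in mdx (0.41 ± 0.16, limma adjusted p = 0.0792), passed without mdx 1 (0.0499, the lowest over the alternatives) and had q = 0.0354 in the authors' deposited table. Il4i1, an amino acid oxidase induced by IL-4, was not called.

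Among TNF receptors, 7 of 14 (50%, against 22.8% of all genes) were called higher in mdx and 4 (28.6%, against 10.6%) in dy2J. None fell, where 11.7% and 7.86% of all genes did. The 7 include Tnfrsf13b, which reached the minimum in no WT library. Tnfrsf1a (ENSMUSG00000030341, chromosome 6, 125349362 to 125362484), the death-domain receptor TNFR1 of most cells, read 21.2, 28.3 and 26.0 FPKM in WT, 55.6, 45.4 and 38.6 in mdx and 45.8 and 34.3 in dy2J. Tnfrsf1b (ENSMUSG00000028599, chromosome 4, 145213463 to 145246870), the TNFR2 of leukocytes and endothelium, read 1.46, 2.33 and 1.89 in WT, 6.93, 14.5 and 7.51 in mdx and 4.83 and 4.02 in dy2J. Both models lay above WT for both receptors, and for Tnfrsf1b mdx also lay above dy2J. Tnfrsf1a rose in mdx by 0.85 ± 0.17 (limma adjusted p = 0.00601) and Tnfrsf1b by 1.82 ± 0.24 (limma adjusted p = 0.00118). In dy2J the rises were 0.64 ± 0.19 and 0.91 ± 0.27 (limma adjusted p = 0.0476 and 0.0493). These 2 calls were lost whenever a WT or dy2J library was left out, that of Tnfrsf1a also without mdx 2 and that of Tnfrsf1b also without mdx 3, and both with either other scaling of the libraries (adjusted p from 0.0378 to 0.319 and from 0.00662 to 0.262 over the limma alternatives).

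Tnfrsf12a was the only member called higher in dy2J than in mdx. Tnfrsf12a (ENSMUSG00000023905, chromosome 17, 23675447 to 23677449) encodes Fn14, the receptor of the cytokine TWEAK, and is induced in damaged or denervated muscle. Its libraries read 14.6, 24.3 and 18.8 FPKM in WT, 28.1, 20.1 and 14.0 in mdx and 46.0 and 59.7 in dy2J. WT and mdx overlapped fully, and both dy2J libraries lay above all 6 others. It was 1.43 ± 0.28 higher in dy2J than in WT (limma adjusted p = 0.0120), missed the threshold in mdx (0.08 ± 0.25, limma adjusted p = 0.838) and was higher in dy2J than in mdx by 1.35 ± 0.28 (limma adjusted p = 0.0314). Against WT the call was lost without dy2J 1 (0.0610) or dy2J 2 (0.0829) and ranged from 0.00810 to 0.0829 over the limma alternatives. Against mdx it was lost without WT 3, mdx 2, mdx 3, dy2J 1 or dy2J 2 (0.0160 to 0.200). Tnfsf12, which encodes TWEAK, read 7.91, 9.90 and 6.83 in WT, 10.3, 14.4 and 11.6 in mdx and 10.8 and 9.73 in dy2J. Tnfsf12 rose in mdx by 0.51 ± 0.15 (limma adjusted p = 0.0322) and was not called in dy2J (0.30 ± 0.17, limma adjusted p = 0.248). The rise in mdx was lost without WT 1, WT 3, mdx 2 or mdx 3 and with quantile normalization (0.0222 to 0.106 over the limma alternatives).

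The 250 bases before the RefSeq starts of Tnfrsf1b and Tnfrsf12a are shown. The first is a receptor called higher in both models, and the second is the only member called higher in dy2J than in mdx. Both genes lie on the minus strand, at chr4:145246871-145247120 and chr17:23677450-23677699 of GRCm38.p6, and the bases are read 5′ to 3′ on that strand. Capitals mark a GAS match that starts 181 bases before the Tnfrsf1b start, and the Tnfrsf12a stretch has none of the 4 motifs searched.
Tnfrsf1b: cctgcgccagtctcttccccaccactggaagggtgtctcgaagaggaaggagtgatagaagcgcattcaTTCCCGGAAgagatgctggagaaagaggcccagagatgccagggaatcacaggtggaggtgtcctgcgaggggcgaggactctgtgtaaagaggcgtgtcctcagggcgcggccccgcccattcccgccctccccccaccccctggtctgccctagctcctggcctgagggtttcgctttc
Tnfrsf12a: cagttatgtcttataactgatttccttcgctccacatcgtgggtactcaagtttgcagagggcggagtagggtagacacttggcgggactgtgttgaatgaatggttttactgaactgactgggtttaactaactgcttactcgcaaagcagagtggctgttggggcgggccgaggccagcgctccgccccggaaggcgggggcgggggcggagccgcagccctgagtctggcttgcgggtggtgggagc

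Promoter windows of 300 bases (250 before and 50 after the start) were found for 46 of the 56 genes, with 59 windows in all, and were searched on both strands for AP-1 (TGANTCA), GAS (TTCNNNGAA), PU.1 (GAGGAAGT) and the NF-kB consensus. A GAS match stood in 18.6% of the 59 windows and in 8.29% of all 32817 RefSeq windows. Among windows of genes higher in mdx the share was 18.5%, and among those of genes not called in mdx it was 19.2%. AP-1 matches stood in 6.78% of the members' windows against 7.81% of all, NF-kB matches in 10.2% against 8.46%, and PU.1 matches in 1.69% against 3.20%. Besides Il1f9 and Tnfrsf1b, GAS matches were found for Il7r, Tnfrsf1a, Tnfrsf19 and 6 genes that did not rise in mdx (Il12rb2, Il17d, Il1r2, Il4, Tnfrsf18 and Tnfrsf25). A match describes letters in a window and is neither a binding site nor a cause.

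**Figure D3:**
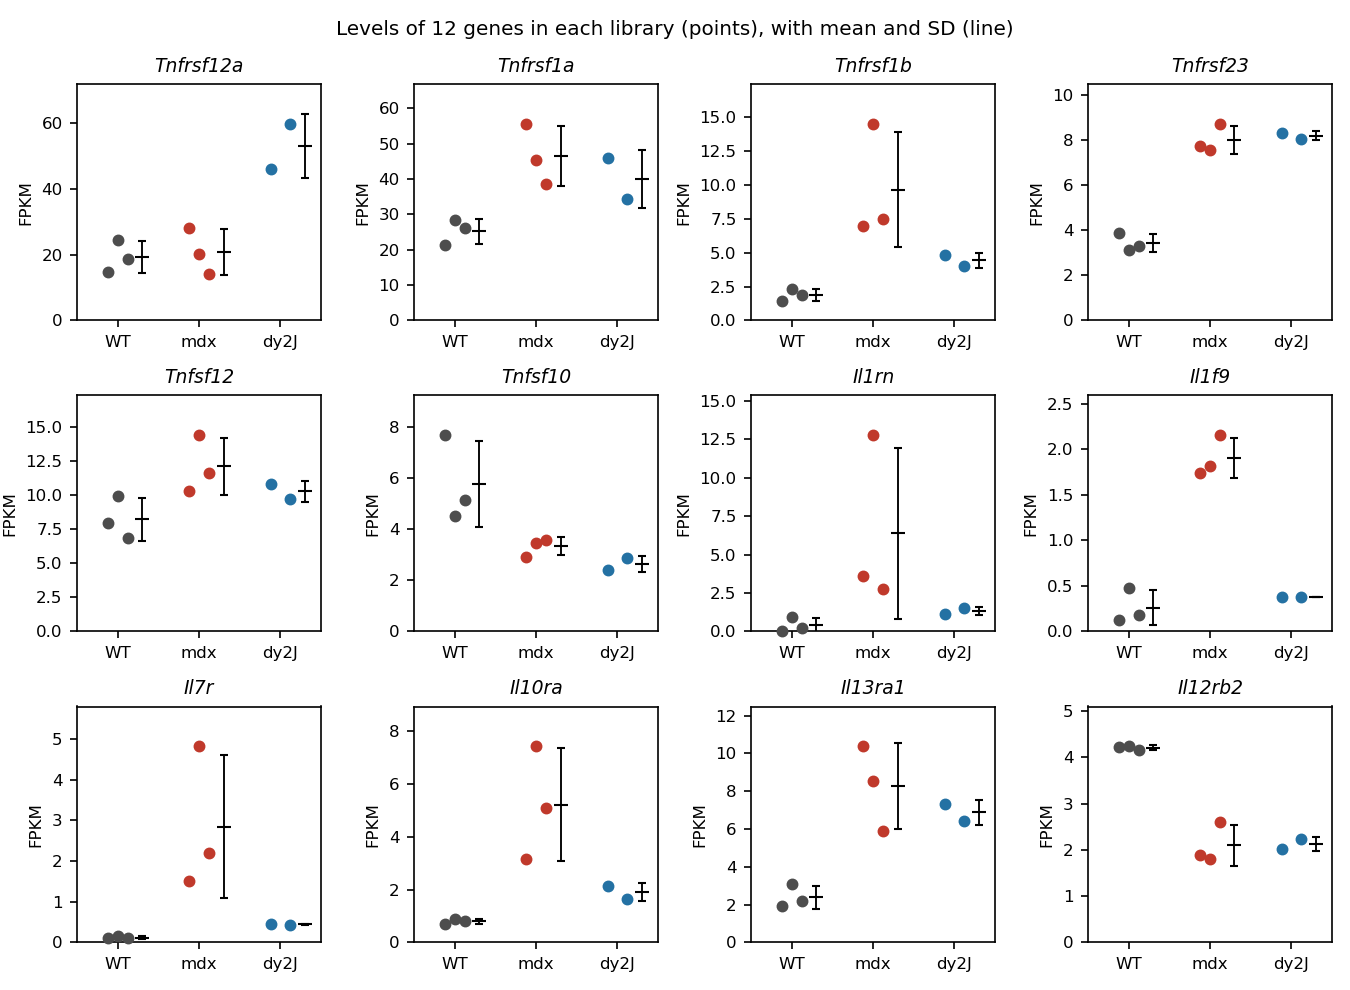
FPKM of 12 genes in each library, with points for the 3 WT (grey), 3 mdx (red) and 2 dy2J (blue) libraries and lines for the mean and SD. Tnfrsf12a is high in dy2J alone (46.0 and 59.7 FPKM), Il1f9 and Il7r in mdx alone, Tnfrsf23 equally in both models, and Il12rb2 and Tnfsf10 lie below WT in both.

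The decoy receptors Tnfrsf22 and Tnfrsf23, which bind TRAIL without a death signal, lie side by side on chromosome 7, and 1 of them rose. Tnfrsf23 (ENSMUSG00000037613, 143665809 to 143685872) read 3.90, 3.14 and 3.32 FPKM in WT, 7.73, 7.56 and 8.73 in mdx and 8.34 and 8.05 in dy2J. Tnfrsf23 rose by 1.02 ± 0.10 in mdx and by 1.05 ± 0.11 in dy2J (limma adjusted p = 0.000436 and 0.00114), with no overlap between WT and the models. Tnfrsf22 stayed between 7.02 and 9.64 FPKM in the 8 libraries and was not called (log2 differences of 0.09 ± 0.10 in mdx and -0.08 ± 0.12 in dy2J, limma adjusted p = 0.535 and 0.647). The genes share 19.3% (Tnfrsf23) and 27.4% (Tnfrsf22) of their 50-base words with other genes, chiefly each other, so reads could be split between them. Tnfrsf10b, the TRAIL receptor that does signal death, rose in mdx by 0.37 ± 0.10 (limma adjusted p = 0.0237), a call that was lost without WT 1, WT 3, mdx 1 or mdx 3 and with quantile normalization (0.0199 to 0.329 over the alternatives).

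Tnfsf10, the ligand TRAIL, fell in both models. It read 7.69, 4.50 and 5.15 FPKM in WT, 2.93, 3.47 and 3.59 in mdx and 2.41 and 2.87 in dy2J, with every library of the models below WT. Tnfsf10 fell by 0.62 ± 0.17 in mdx (limma adjusted p = 0.0217) and by 0.87 ± 0.19 in dy2J (limma adjusted p = 0.0161). The first call was lost without mdx 1 (0.0613, the highest over the limma alternatives) and the second without dy2J 1 or dy2J 2 (0.0109 to 0.136 over the limma alternatives). The markers of endothelial cells, which are among the cells that make TRAIL, summed to 155 to 171 FPKM in WT, 123 to 138 in the mdx pools and 138 and 144 in the dy2J pools, with 4 of 8 lower in mdx and 2 in dy2J, and their part in the fall was not tested.

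Tnfrsf11a, Tnfrsf13b and Tnfrsf19 were the other TNF receptors called higher in mdx, and the ligand Tnfsf13 was called higher too. Tnfrsf11a (RANK), the receptor that drives osteoclast formation, read 0.521, 0.613 and 0.436 FPKM in WT, 1.64, 4.18 and 2.24 in mdx and 1.14 and 1.09 in dy2J, in 3 levels without overlap. It rose in mdx by 1.22 ± 0.22 (limma adjusted p = 0.00376) and was not called in dy2J (0.47 ± 0.24, limma adjusted p = 0.207). Tnfrsf13b (TACI), a receptor of BAFF and APRIL, averaged 0.350 ± 0.118 FPKM in WT and 1.76 ± 0.911 in mdx. It reached the minimum in no WT library, so its fitted difference of 0.99 ± 0.22 in mdx is given with no test. B cell markers summed to 0.585 to 1.16 FPKM in WT, 1.20 to 2.63 in the mdx pools and 1.34 and 1.28 in the dy2J pools. Of 2 tested markers 1 (Cd22) was higher in mdx. The part of the B cell markers in the mdx level of Tnfrsf13b was not tested. Tnfsf13 (APRIL) averaged 1.10 ± 0.289 in WT and 2.20 ± 0.801 in mdx and rose by 0.59 ± 0.19 (limma adjusted p = 0.0398). That call was lost without WT 1, WT 3, mdx 2 or either dy2J library and with either other scaling of the libraries (0.0134 to 0.132 over the limma alternatives). Tnfsf12, Tnfsf13 and their readthrough entry Tnfsf12Tnfsf13 overlap on chromosome 11 and share 46.8%, 57.3% and 71.0% of their 50-base words with other entries, so their levels are uncertain. Tnfrsf19 (TROY) rose in mdx by 0.56 ± 0.15 (limma adjusted p = 0.0219), a call that was lost whenever a WT library was left out and with quantile normalization (0.00733 to 0.104 over the alternatives). Tnfrsf4, Tnfrsf14, Tnfrsf18, Tnfrsf21 and Tnfrsf25 were not called, and Tnfrsf14 read 4.72 in mdx 2 and 0.803 to 1.73 in the other libraries.

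**Figure D4:**
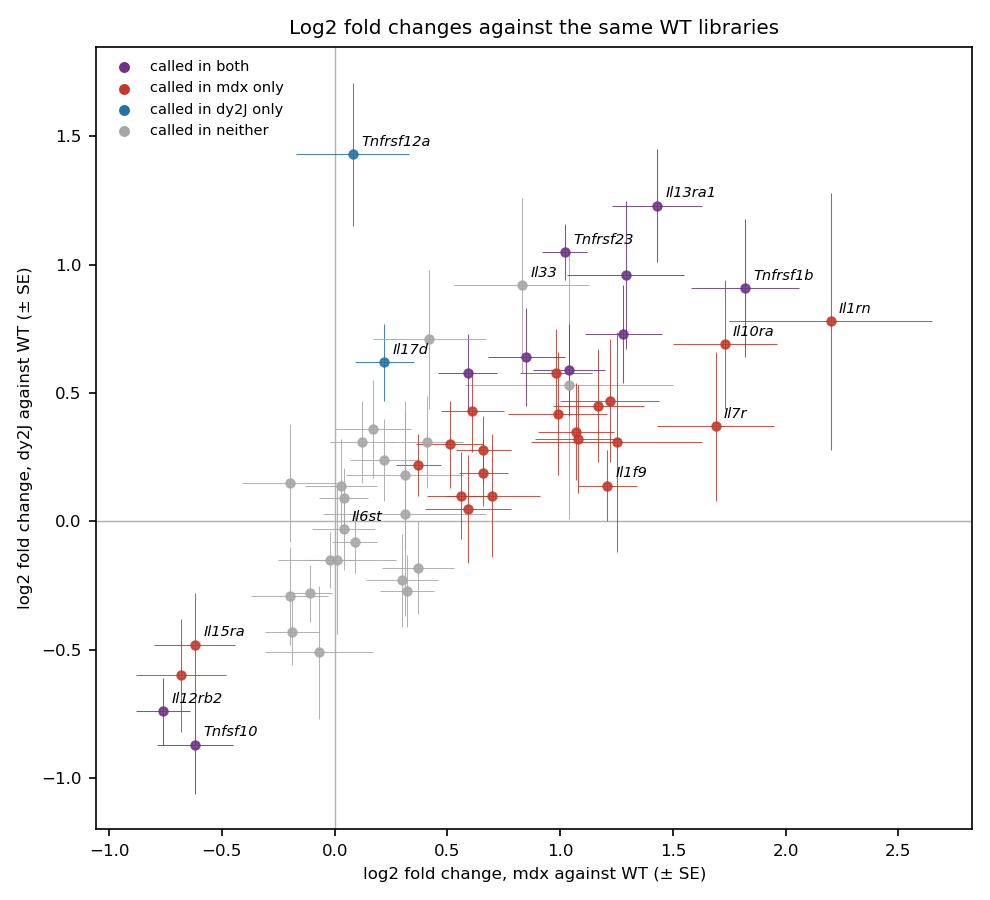
Log2 fold change ± SE of each of the 56 genes in mdx against WT (horizontal) and dy2J against WT (vertical), coloured by the comparison in which limma called it. Tnfrsf12a lies at 0.08 and 1.43 and Il1rn at 2.20 and 0.78, and both axes share the WT libraries. The SEs are slightly larger in dy2J, with 2 libraries, than in mdx, with 3 (for Il1rn 0.50 against 0.45).

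Within mdx the highest library was most often mdx 2. Of the 27 genes higher in mdx, 14 (51.9%) were highest in mdx 2, 7 in mdx 3 and 6 in mdx 1, where 57.1% of all genes higher in mdx were highest in mdx 2. The genes highest in mdx 1 were Il1r1, Il1rl1, Il4ra, Il13ra1, Tnfrsf1a and Tnfrsf10b. The macrophage sum was also highest in mdx 2, at 1320 FPKM, and its part in these values was not tested. Of the 10 macrophage markers 8 were higher in mdx and 7 in dy2J, with Cd68 averaging 8.56 ± 1.40 FPKM in WT, against 78.1 ± 39.3 in mdx and 25.8 ± 0.467 in dy2J. Fibro-adipogenic progenitor markers were higher for 5 of 9 genes in each model and summed to 974 to 1050 FPKM in WT, 1550 to 1730 in the mdx pools and 2300 and 1520 in the dy2J pools.

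Downstream of the TNF receptors, of 26 adaptor and NF-kB genes 12 (46.2%, against 22.8% of all genes) were higher and none (against 11.7%) lower in mdx. In dy2J 6 (23.1%, against 10.6%) were higher and 2 (7.69%, against 7.86%) lower. Nfkb2, Relb and Map3k14, which act in the non-canonical NF-kB branch that Fn14 and other TNF receptors use, were called higher in both models. Chuk, Traf2, Birc2 and Birc3, which also act in that branch, were not called in either model. Their log2 differences in dy2J were 0.02 for Chuk, 0.22 for Traf2, -0.26 for Birc2 and 0.36 for Birc3. Calls in mdx were not confined to the non-canonical branch. The largest rise of the 26 in mdx was that of Traf1 (1.06 ± 0.20, limma adjusted p = 0.0051). Nfkbie followed (0.93 ± 0.14, limma adjusted p = 0.00178). Nfkb1 and Rela also rose in mdx (0.41 ± 0.09 and 0.43 ± 0.11, limma adjusted p = 0.0108 and 0.0145). Of these, only Nfkbie was called in dy2J. Nfkb2, the precursor protein processed in the non-canonical branch, read 2.68, 3.31 and 3.08 FPKM in WT, 6.54, 7.37 and 5.59 in mdx and 9.99 and 9.86 in dy2J, in 3 levels without overlap. It rose by 0.89 ± 0.11 in mdx and 1.44 ± 0.13 in dy2J (limma adjusted p = 0.000974 and 0.000504) and was higher in dy2J than in mdx by 0.55 ± 0.13 (limma adjusted p = 0.0419). Relb, its binding partner, rose by 0.38 ± 0.12 and 0.81 ± 0.14 (limma adjusted p = 0.0443 and 0.00691), and Map3k14, which encodes the kinase NIK, by 0.30 ± 0.10 and 0.68 ± 0.11 (limma adjusted p = 0.0482 and 0.00617). Between the models these 2 were not called (0.43 ± 0.14 and 0.38 ± 0.11, limma adjusted p = 0.106 and 0.0861). Traf3, which marks NIK for degradation, rose in dy2J by 0.54 ± 0.10 (limma adjusted p = 0.00870) and was not called in mdx, with a difference of 0.10 ± 0.09 (limma adjusted p = 0.410). Tnip1, an inhibitor of NF-kB, fell in dy2J by 0.73 ± 0.10 (limma adjusted p = 0.00259) and was lower there than in mdx (-0.58 ± 0.10, limma adjusted p = 0.0131). Nfkbie, another inhibitor, rose in dy2J by 0.77 ± 0.16 (limma adjusted p = 0.0121). The inhibitors Nfkbia, Nfkbib and Tnfaip3 were not called in dy2J (log2 differences of -0.55, 0.17 and -0.1). In mdx the call of Map3k14 was lost whenever a library was left out, and that of Relb whenever a library other than mdx 3 was, and both were lost with either other scaling of the libraries (0.0410 to 0.552 and 0.00905 to 0.368 over the limma alternatives). In dy2J the calls of Relb, Map3k14 and Traf3 were lost without dy2J 1, at adjusted p of 0.0624, 0.0675 and 0.0924 by limma, each the highest over the alternatives. Between the models, Tnip1 lost its call without either dy2J library (0.0118 to 0.118 over the limma alternatives), and Nfkb2 kept its call only without mdx 2 when a library was left out (0.0239 to 0.197). Map3k14, Traf3, Tnip1, Chuk, Traf2, Birc2, Birc3, Nfkb1, Rela, Nfkbia, Nfkbib and Tnfaip3 were chosen for naming after their values were seen. No range over the alternatives is given for Traf1, Nfkbie, Nfkb1 and Rela.

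TNF family genes that carry other names were mixed. Of 9 tested, 3 (33.3%, against 22.8% of all genes) were higher and 2 (22.2%, against 11.7%) lower in mdx. In dy2J 1 was higher and 1 lower (11.1% each, near the 10.6% and 7.86% of all genes). Eda2r, a receptor of ectodysplasin A2 that p53 induces, rose by 0.88 ± 0.10 and 1.21 ± 0.11 from 6.34 ± 0.335 FPKM in WT (limma adjusted p = 0.000628 and 0.000589). Cd27, a lymphocyte receptor, fell in dy2J by 0.59 ± 0.14 (limma adjusted p = 0.0232), and Relt fell in mdx by 0.48 ± 0.12 (limma adjusted p = 0.0144). The call of Cd27 was lost without WT 1, WT 3 or either dy2J library (0.00884 to 0.141 over the limma alternatives).

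Genes below the IL-1 and IL-18 receptors, inflammasome genes included, were higher for 7 of 14 (50%, against 22.8% of all genes) and lower for 1 in mdx. In dy2J 2 (14.3%, against 10.6%) were higher and 1 (7.14%, against 7.86%) lower. Pycard, the inflammasome adaptor ASC, rose in mdx by 1.42 ± 0.22 (limma adjusted p = 0.00206), and Myd88, the adaptor of IL-1 and Toll-like receptors, by 1.28 ± 0.18 in mdx and 0.78 ± 0.21 in dy2J (limma adjusted p = 0.00150 and 0.0337). Tab2, which links the receptor complex to the kinase TAK1, fell from 50.1 ± 1.52 FPKM in WT to 26.8 ± 0.767 in mdx and 31.3 ± 1.78 in dy2J (log2 changes of -0.88 ± 0.08 and -0.66 ± 0.09, limma adjusted p = 0.000323 and 0.00318). The rise of Myd88 in dy2J was lost without WT 1, WT 3 or either dy2J library (0.0160 to 0.171 over the limma alternatives).

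Cntfr and Lifr, whose products signal with gp130 as Il6ra and Il11ra1 do, fell in both models, and gp130 itself (Il6st) was not called. Cntfr, the receptor chain of the neurotrophic cytokine CNTF, read 22.7, 23.6 and 27.3 FPKM in WT, 8.81, 9.03 and 11.8 in mdx and 7.95 and 8.66 in dy2J. It fell by 1.24 ± 0.13 and 1.45 ± 0.14 (limma adjusted p = 0.000482 and 0.000750). Lifr, the LIF receptor, fell by 0.89 ± 0.11 in mdx and 0.89 ± 0.12 in dy2J (limma adjusted p = 0.000890 and 0.00327). Osmr, the oncostatin M receptor, rose by 0.81 ± 0.22 and 0.86 ± 0.25 (limma adjusted p = 0.0217 and 0.0438). Without mdx 1 or mdx 2 Osmr lost its call in mdx (0.0193 to 0.0645 over the limma alternatives), and in dy2J it kept its call without WT 2 alone (0.0401 to 0.206). Of the 7 genes of this list that were tested, 2 were higher and 2 lower in mdx (28.6% each, against 22.8% and 11.7% of all genes), and 3 were higher (42.9%, against 10.6%) and 2 lower (28.6%, against 7.86%) in dy2J.

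Of 15 JAK, STAT and SOCS genes tested, 6 were higher (40.0%, against 22.8% of all genes) and 4 lower (26.7%, against 11.7%) in mdx. In dy2J 3 were higher (20%, against 10.6%) and 4 lower (26.7%, against 7.86%). Socs3, the feedback inhibitor of gp130 signalling, read 1.27, 7.75 and 2.72 FPKM in WT, 25.8, 13.0 and 7.36 in mdx and 16.7 and 16.1 in dy2J, with WT 2 within the range of mdx. It rose by 1.80 ± 0.52 and 2.05 ± 0.58 (limma adjusted p = 0.0269 and 0.0410). Both calls were lost without WT 1, WT 3 or mdx 2, the first also without mdx 1 and the second without either dy2J library (0.00943 to 0.0781 and 0.0179 to 0.195 over the limma alternatives). Socs1 rose by 1.35 ± 0.18 and 1.25 ± 0.20 (limma adjusted p = 0.00116 and 0.00531), a call lost for dy2J without dy2J 1 (0.0626, the highest over the alternatives). Jak2 fell by 0.79 ± 0.09 and 0.92 ± 0.10 from 18.4 ± 0.631 FPKM in WT (limma adjusted p = 0.000575 and 0.00103), and Cish, a STAT5 target and feedback inhibitor, by 0.82 ± 0.12 and 0.84 ± 0.13 (limma adjusted p = 0.00152 and 0.00483).

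Receptors and ligands of blood-forming cytokines outside the naming rule were higher for 6 (60.0%, against 22.8% of all genes) and lower for 1 of 10 in mdx, and higher for 2 (20%, against 10.6%) in dy2J. Csf2ra, the GM-CSF receptor, rose by 1.73 ± 0.25 in mdx and Csf1r, the macrophage growth factor receptor, by 1.61 ± 0.27 (limma adjusted p = 0.00145 and 0.00293). Crlf2, the TSLP receptor that pairs with Il7r, rose by 1.44 ± 0.17 in mdx and 1.02 ± 0.19 in dy2J (limma adjusted p = 0.000738 and 0.00918), with its ligand Tslp listed at 0 in all libraries. In dy2J that call was lost without dy2J 1 (0.0974, the highest over the limma alternatives).

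**Figure D5:**
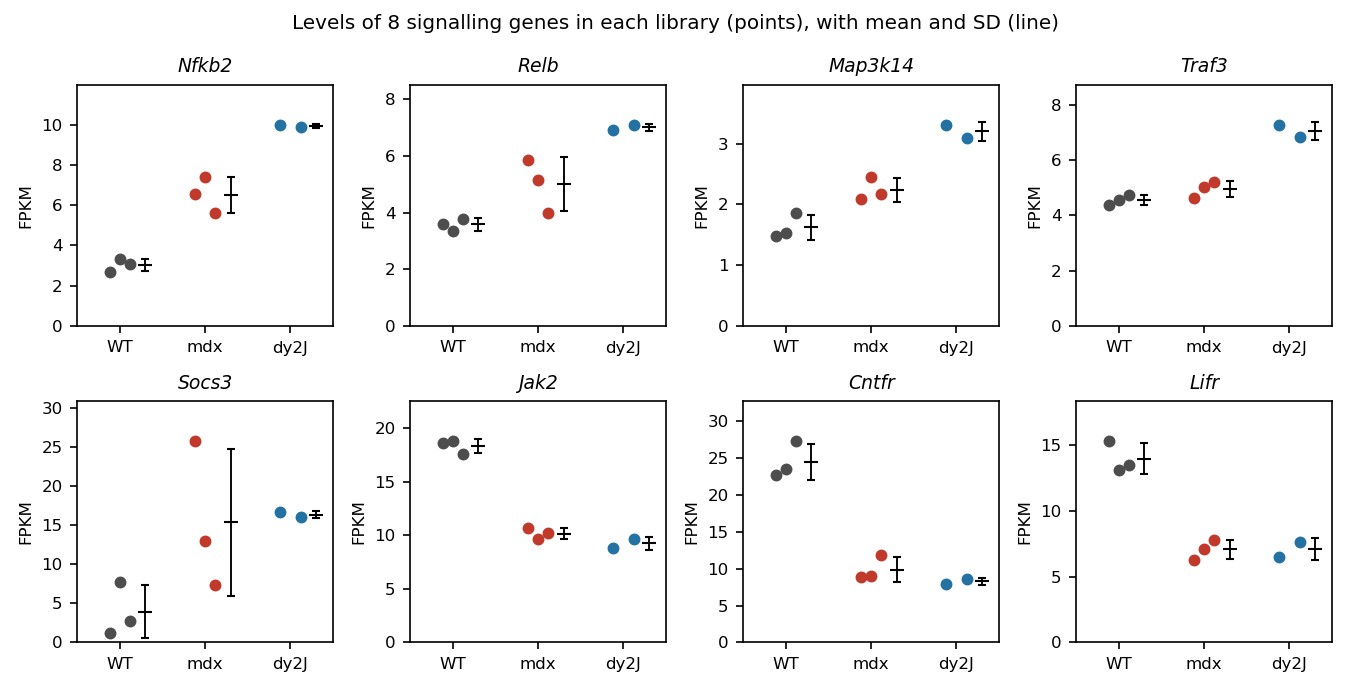
FPKM of 8 signalling genes in each library, with points for the WT (grey), mdx (red) and dy2J (blue) libraries and lines for the mean and SD. Nfkb2 climbs from WT over mdx to dy2J (3.02, 6.50 and 9.93 FPKM), Traf3 is high in dy2J alone, and Jak2, Cntfr and Lifr lie below WT in both models.

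The authors' deposited table called 31 of the 56 genes in mdx against WT at q below 0.05, where it called 26.0% of all genes it tested, and 28 of its calls were also limma calls. In the authors' deposited table alone were Il1b, Il33 and Il16, and by limma alone Il15ra, Il11ra1 and Tnfsf13. In dy2J against WT the authors' deposited table called 17 of the 56, where it called 18.4% of all genes it tested. Of these 17 calls, 10 were shared with limma. The 7 others were Il1rn, Il33, Il7r, Il21r, Il10ra, Il3ra and Tnfrsf11a, and Il11ra1 and Tnfrsf1a passed by limma alone.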

How the data were processed

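Quadriceps RNA from 8 pools of mice was sequenced. Per the submitters' processing notes the tools were TopHat2 (2.0.13), bcl2fastq (version 2.15.0.4), Trim Galore in version 0.3.7, Cuffnorm, Cuffdiff and Cufflinks (2.2.1), listed there in no order, with the build GRCm38, while their settings, the strandedness and which mice went into which pool are not given in the sources used here. The deposited values are FPKM per gene as the authors normalized them, and the authors' deposited table also holds p-values and q-values of their own comparisons. FPKM keep no read counts. Among 12136 genes with 1 transcript, low values multiplied by transcript length were set against whole multiples of a step, and at the best step 26.5% to 30.1% of them per library came within 0.1 of a whole number, where chance gives 20%, so reads were not recovered, the depth is unknown and no counting interval is given.

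The 14355 genes that reached 0.5 FPKM in 2 or more libraries were fitted as log2(FPKM + 1) with limma 3.58.1 in R 4.3.3 (1 term per genotype, mean-variance trend, 5 residual degrees of freedom, two-sided, Benjamini-Hochberg over all genes, threshold 0.05). The pseudocount of 1 makes fold changes of low genes smaller than their FPKM ratios. The code was tested on simulated data. An exact permutation test of 1 gene in 3 against 3 pools cannot go below 0.1, so none was used. Tables were made with pandas 2.3.3 and numpy 2.4.6 in Python 3.11.15, and plots with matplotlib 3.10.9. Shared 50-base words were counted in GENCODE M21 transcripts, and genes that share many, or that overlap another gene, have uncertain levels. Promoters came from RefSeq.

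The members and gene lists were chosen with earlier results of these data known. Library values are given for a fixed list of well-known members and for the 4 highest and 4 lowest changes called in each comparison. From each pathway or marker list the 2 genes with the largest called change in each model could be named. Traf2, Traf3, Birc2, Birc3, Chuk, Map3k14, Tnip1, Nfkb1, Rela, Nfkbia, Nfkbib, Tnfaip3, Tab2, Osmr, Jak2 and Cish were chosen after their values were seen. So were some other members and markers given for their levels. The alternatives were pseudocounts of 0.1 and 0.5, no minimum, a minimum of 1 FPKM, quantile normalization, median-ratio rescaling, fits of 2 genotypes, no trend, a replicate block, doubtful 0 values set to missing, and each library left out in turn. Leaving out a dy2J library leaves 1, which is then assumed to vary like the other groups.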

Additional observations from a re-analysis of the deposited data

How the results depend on the processing

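No gene of the 56 changed direction while called in any of the 18 alternatives, and the number called in mdx against WT stayed within 1.5 times of 31 (24 to 30 with a library left out, 23 with no minimum). The 12 calls of dy2J against WT became 5 with no minimum, 19 in a fit of the 2 genotypes alone, 6 with the replicate block and 1 to 13 with a library left out. The 5 calls of dy2J against mdx became 1 with no minimum, 1 in the fit of 2 genotypes, 1 with the block and 0 to 12 with a library left out. Without adjustment 35 of the 56 genes had a limma p below 0.05 in mdx and 21 in dy2J, each against WT, and 23 between the models. In mdx and between the models these include Il1f9, Il2rb and Il7r, which entered the set only through mdx. The share of all genes with an unadjusted p below 0.05 was not computed, so these counts are a description only. Beyond left-out libraries and scaling, Tnfrsf1a, Tnfrsf1b and Il4ra were not called in dy2J against WT with no minimum, without the mean-variance trend or with the block, nor Il17ra with no minimum, in the fit of 2 genotypes or with the block. Recomputing the gene lists was decided after the data were seen. The 46 pathway genes called in mdx against WT became 34 to 43 with a library left out, and the 35 marker genes 28 to 34. For dy2J against WT, the 27 pathway genes became 17 with the block and 8 to 33 with a library left out, and the 29 marker genes 17 with no minimum and 7 to 31. For dy2J against mdx, the 6 pathway genes became 1 with no minimum, 10 with quantile normalization, 2 in the fit of 2 genotypes, 1 with the block and 0 to 9 with a library left out, and the 13 marker genes 7, 16, 8, 8 and 3 to 19 under the same changes. Fewer libraries or residual degrees of freedom enter the fits without a library, of 2 genotypes or with the block, more genes enter the adjustment with no minimum, and other causes were not tested. Of all calls in dy2J against mdx, 42.9% were higher, and 59.9% with quantile normalization and 57.4% with median-ratio rescaling. In dy2J against WT 57.4% were higher, and 44.8% with quantile normalization. Deviations of same-numbered libraries from their group means correlated at -0.139 to 0.079 across genes, and WT 3 correlated more with mdx 2 (0.053) than with mdx 3 (0.044), so the numbers were not taken to pair the pools. Pools of mice and an unknown depth limit what low genes such as Il21r or Il4 can show.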

Other observations

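Several of the 56 genes are genomic neighbours (GRCm38). On chromosome 1 Il1r2, Il1r1, Il1rl2 and Il1rl1 lie within 391 kb on the plus strand, with log2 differences in mdx of 0.31, 0.66, 0.32 and 1.25, of which the limma fit called those of Il1r1 and Il1rl1. On chromosome 2 Il1f9 and Il1rn span 165 kb and had higher levels in every mdx library than in any other, and Il2ra and Il15ra span 92 kb, of which Il15ra fell. On chromosome 7 Il4ra and Il21r span 81 kb. Il4ra rose in mdx, and every mdx library of Il21r lay above every WT library. On chromosome 4 the T cell receptors Tnfrsf4 and Tnfrsf18 span 15 kb, with differences of -0.07 and 0.30 in mdx and -0.51 and -0.23 in dy2J, none of them called.

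Summed over the 56 genes, the level was 263 to 316 FPKM in WT, 393 to 425 in the mdx pools and 368 and 372 in the dy2J pools. Without Il6st it was 182 to 220, 299 to 339, and 289 and 286. Receptors made up 218 to 266 FPKM of the sum in WT and 316 to 349 in the models.

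Markers of other cells in the tissue also differed. All 8 satellite cell and regenerating fibre markers (Pax7, Myf5, Myod1, Myog, Myh3, Myh8, Tmem8c and Ncam1) rose in mdx. In dy2J 5 rose and 1, Pax7, fell, and 5 were lower in dy2J than in mdx. Their sums were 28.7 to 39.4 FPKM in WT, 208 to 456 in the mdx pools and 187 and 169 in the dy2J pools. Of 10 mature fibre markers 5 fell in mdx, and in dy2J 5 fell while Myh2 rose. Of 5 adipocyte markers none was called in mdx, and Adipoq and Cfd rose in dy2J, with sums of 155 to 494 FPKM in WT, 334 to 461 in the mdx pools, and 876 and 683 in the dy2J pools. Of 5 tested mast cell and eosinophil markers Tpsb2 fell in mdx and none was called in dy2J, with sums of 17.7 to 22.3, 15.0 to 17.3, and 24.6 and 22.5. Of 5 tested neutrophil markers Mmp8 rose in mdx and none was called in dy2J. The part of these markers in the values of the 56 genes was not tested.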
